A study of Gallus gallus with 12 samples.

Results

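The left coelomic epithelium of the chicken dorsal mesentery was compared with the right coelomic epithelium across all genes of an Affymetrix chicken array. The comparison rests on 6 of the 12 arrays of the series, those whose titles name left or right epithelium, with 3 arrays a side and 1 array a side for each of the 3 replicate numbers, which were read here as the 3 biological experiments although the labels do not state that link. The left epithelium and the right epithelium came from the same kind of embryo, white Leghorn chickens harvested at Hamburger-Hamilton stage 21 (HH 21, about day 3.5 of incubation), and both sides were untreated and of the same genotype as far as the labels say. Each compartment was cut by laser from frozen sections, and the material of 1 experiment was pooled on 1 array for each compartment. The labels do not say how many embryos entered an experiment or how the border between epithelium and mesenchyme was recognised. The other 6 arrays hold the left and right mesenchyme under the epithelium. Their signals are given below only where the epithelium is set against the mesenchyme. They also enter the fit, in which all 12 arrays share 1 estimate of the spread of each gene.

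The dorsal mesentery is the fold of tissue by which the gut tube hangs in the body cavity. Its core is loose mesenchyme, and each face is covered by coelomic epithelium, the sheet that lines the body cavity and can release cells into the tissue beneath. At about this stage the 2 sides of the mesentery come to differ in cell shape, packing and matrix, which tilts the gut tube to the left and gives its first loop a direction.

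Signals are the authors' MAS5 values, which are linear and were scaled to the same trimmed mean on every array, so that a level of 1 gene may be set against its own level on another array but not against another gene. Differences are given as left minus right on the log2(signal + 16) scale with their standard error, which understates the change of dim genes. Each standard error and adjusted p comes from limma, fitted over 22616 chicken probe sets on all 12 arrays with the replicate number as a block. A gene passed where its adjusted p was under 0.05, and each gene is represented by its brightest tested probe set. In bulk tissue, fewer cells of a type and less RNA per cell cannot be told apart. The p-values describe the spread between these arrays, and with 3 against 3 a plain exact test cannot give a p below 0.1.

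The epithelial arrays resembled each other, with pairwise correlations over all tested probe sets of 0.9326 to 0.9651. Among the 10 markers of coelomic epithelium, 5 had a usable probe set. PODXL, which encodes a sialoprotein of the free surface of such epithelia, and BNC1, a zinc finger factor of mesothelium, were higher on all 6 epithelial arrays than on all 6 mesenchymal arrays, while TCF21, ALDH1A2 and LHX9 were not. PODXL had signals of 5145, 5760 and 5452 in left epithelium, against 7276, 6525 and 5990 in right epithelium, where mesenchymal means were 1958 on the left and 1787 on the right. Markers of mesenchyme were also present on the epithelial arrays, with a summed signal of 15384 to 16781 in left and 21306 to 22228 in right epithelium. The same sums were 17478 to 19590 in left and 20316 to 23690 in right mesenchyme, so by this sum right epithelium lay within the range of right mesenchyme. COL1A1 and COL3A1 contribute most to it, with means of 7652 and 5699 in right epithelium, against 7054 and 6070 in right mesenchyme. PDGFRA was the 1 of the 6 mesenchyme markers that was higher on all mesenchymal than on all epithelial arrays. Its signals were 2975, 2865 and 3359 in right epithelium, against 4240, 3602 and 3640 in right mesenchyme. FOXF1 was not above background on any of the 12 arrays. Endothelial markers summed to 634 to 852 in left and 489 to 699 in right epithelium, below every mesenchymal array (1311 to 5092). Leukocyte markers summed to 244 to 319 in left and 336 to 430 in right epithelium, again below the mesenchyme (897 to 1568).

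Red cell RNA differed between single arrays. The globin genes HBAD, HBZ, HBA1, HBE and HBBR encode the chains of embryonic and adult haemoglobin, and the markers of red cells summed to 63547, 23929 and 19352 in left epithelium 1, 2 and 3, against 71848, 71801 and 68089 in right epithelium. HBZ had signals of 10889, 3420 and 2651 in left epithelium, against 12937, 12475 and 11664 in right epithelium. Left epithelium 1 thus lay near the right arrays, and left epithelium 2 and 3 lay far below them. All 5 globin genes passed as lower on the left, by 1.10 to 1.43 log2, and the 5 had medians of -1.16 log2 in the epithelium and -0.15 in the mesenchyme. Of 17 other tested genes of red cells 0 passed in limma (median -0.36, 5 with an unadjusted p under 0.05), and the red cell genes SLC4A1 and HEMGN lay below the filter on low values. Of 163 called genes followed singly, among them all those named below but LOC419389, 32 passed with each array's globin signal as a covariate. All 163 kept their sign without left epithelium 2 and 3. Of the 302 called genes, 301 had the same sign in all 3 left-right pairs, left epithelium 1 included. A kept sign was therefore nearly fixed by the calls, here and below, and is no separate support. The part of red cell RNA in each gene's difference was not tested beyond these fits. Without left epithelium 2 and 3 the left side is 1 array. A call lost there cannot be told apart from the loss of arrays, here and below, so for single genes that fit is read for size. The globin signal was itself lower in left epithelium, so that covariate overlaps with side. A call lost with the covariate cannot be told apart from the lower precision this brings, so the sizes are to be read there too.

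**Figure D1:**
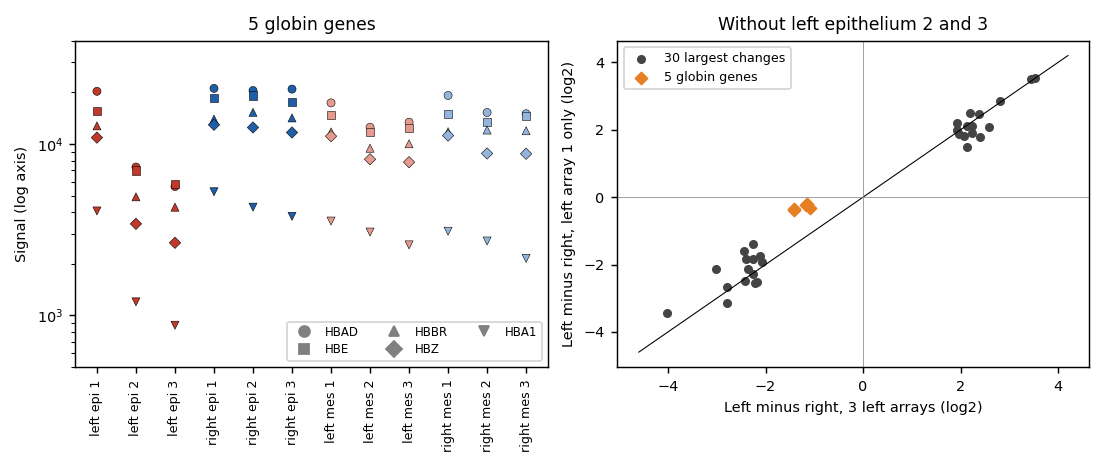
Signals of 5 globin genes on each array on a log axis (left panel, 1 marker shape a gene, arrays grouped as left epithelium, right epithelium, left mesenchyme, right mesenchyme), and left minus right log2 differences of the epithelium with all arrays against those without left epithelium 2 and 3 (right panel, 1 point a gene, with the line of equal values). Left epithelium 2 and 3 carry the lowest globin signals of all arrays. The 30 genes with the largest changes were chosen among calls with the same sign in all 3 left-right pairs. All 30 keep their sign without these 2 arrays, which that choice nearly fixed. CRHBP (-2.15 log2), FAM198B (-1.59), CA10 (-1.41) and NTRK3 (1.49) lie nearer 0 there than with all arrays (-3.02, -2.44, -2.26 and 2.14).

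In the epithelium 302 of 9620 genes passed (3.14%), 121 of them higher (1.26%) and 181 lower (1.88%) in left epithelium, and 164 (1.7%) changed at least 2-fold. The 3.14% is the share beside which the counts of called members in the gene lists below are to be read. Counted as probe sets, 568 of 22616 passed (2.51%), of which 230 were higher (1.02%) and 338 lower (1.49%) in left epithelium, and 123 had no single gene symbol. Of the 302 genes, 301 had the same sign in all 3 left-right pairs of arrays with the same replicate number. The left and right arrays did not overlap for 294 of the 302, as was the case for 17.5% of all genes tested. The calls were made on these same arrays, which favours both counts, so neither is separate support. Symbols starting LOC, and calls without the same sign in all 3 pairs, were left out of the ranking of the largest changes. Among the other genes, the largest rises on the left were those of FAS, CDH6, SST1 and VIPR2. The largest falls were those of ENPEP, CRHBP, IGSF11 and SMYD1. A probe set without a single symbol rose more than FAS, by 3.999 log2 (limma adjusted p = 1.4e-11). Its signals were 13989, 17053 and 15372 in left epithelium, against 996, 1174 and 731 in right epithelium.

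The list was shorter without any 1 of the 6 epithelial arrays. Without left epithelium 1, 2 and 3 in turn it held 448, 327 and 331 probe sets. Without right epithelium 1, 2 and 3 in turn it held 425, 346 and 365. Without both left epithelium 2 and 3 it held 131, of which 120 were also among the 568, and with the globin covariate 102, of which 87 were. A fit of the 6 epithelial arrays alone gave 289 probe sets. All 30 genes with the largest changes (15 in each direction) kept their sign without left epithelium 2 and 3, with sizes of 1.41 to 3.54 log2. They were picked among calls with the same sign in all 3 left-right pairs, so that choice nearly fixed the kept sign. With the globin covariate 12 of the 30 passed, and all 30 passed in the fit of 6 arrays. Without any 1 epithelial array, 27 of the 30 passed, the exceptions being NTRK3 (adjusted p up to 0.15, without left epithelium 3), KCND2 (up to 0.079, without right epithelium 3) and FAM198B (up to 0.10, without left epithelium 3).

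**Figure D2:**
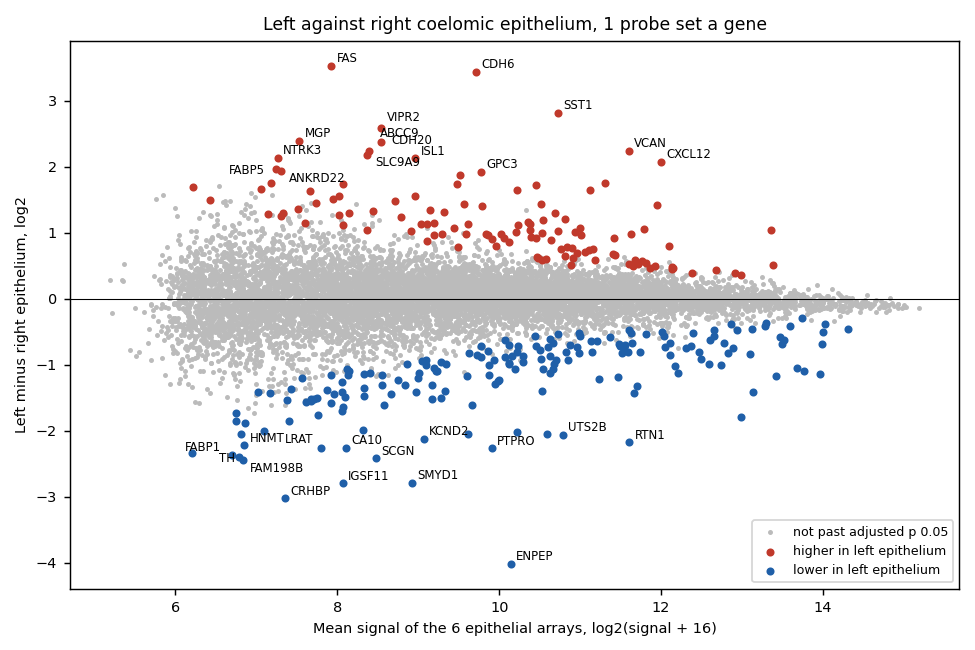
Left minus right difference of each gene (vertical axis, log2) against its mean signal on the 6 epithelial arrays (horizontal axis, log2), with the 121 genes that were higher on the left in red, the 181 that were lower in blue and the rest in grey. The 30 largest changes of genes whose symbol does not start with LOC are named, from FAS at 3.53 to ENPEP at -4.01.

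The classical and type II cadherins, which join neighbouring cells, moved in different directions. Of 33 tested cadherins and catenins, 2 rose, 3 fell and 28 did not pass, with a median of -0.11 log2 where that of all genes was 0.02. CDH6, a type II cadherin, had signals of 1659, 1503 and 1407 in left epithelium, against 147, 128 and 106 in right epithelium. The left arrays stood far above the right ones with little spread, and the difference was 3.44 ± 0.20 log2 (SE, n = 3 each; 10.8-fold, adjusted p = 2.4e-08). CDH20, another type II cadherin, had 697, 507 and 600 in left epithelium, against 83.9, 175 and 71.3 in right epithelium, and rose by 2.37 ± 0.33 log2 (limma adjusted p = 0.00044). CDH11, a type II cadherin of loose mesenchyme, ran the other way, at 1040, 1570 and 1694 in left epithelium against 4240, 2928 and 2865 in right epithelium (-1.22 ± 0.19 log2, limma adjusted p = 0.0013). PCDH11X, a protocadherin, and CTNNA2, an alpha catenin, fell by 0.75 and 0.93 log2, and CTNNA2 missed the threshold without right epithelium 1 (limma adjusted p = 0.079) and had another probe set at 0.05 log2. The classical cadherins CDH1 (0.01 log2) and CDH2 (0.00 log2) did not pass. All 5 called members kept their sign without left epithelium 2 and 3, and 3 of them passed there and 2 with the globin covariate.

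Of 28 adhesion molecules of the immunoglobulin family, 0 rose and 3 fell (median -0.17 log2). IGSF11, a homophilic adhesion molecule, had signals of 42.1, 99.4 and 21.3 in left epithelium, against 504, 604 and 243 in right epithelium, and was above background on 2 of the 3 left arrays (-2.79 ± 0.41 log2, limma adjusted p = 0.00071). CADM2, of the nectin-like group, had 343, 448 and 602 in left epithelium, against 1599, 2198 and 1888 in right epithelium, with no overlap (-2.02 ± 0.23 log2, limma adjusted p = 4.5e-05). LSAMP, a neural adhesion molecule, was 0.63 log2 lower. It missed the threshold without right epithelium 2 (limma adjusted p = 0.19). The integrin subunits ITGA8, a receptor for nephronectin, and ITGA6, a laminin receptor of basal surfaces, fell by 1.62 ± 0.26 and 0.83 ± 0.09 log2 among 16 tested integrin genes. The common partner ITGB1 had 10699, 10812 and 10882 in left epithelium, against 13123, 12989 and 12653 in right epithelium, and did not pass (-0.26 log2, limma adjusted p = 0.10). IGSF11 was at -3.15, CADM2 at -2.52, ITGA6 at -0.92 and ITGA8 at -1.26 log2 without left epithelium 2 and 3. With the globin covariate CADM2 and ITGA6 passed. IGSF11 (-3.18 log2) and ITGA8 (-1.18 log2) did not (limma adjusted p of 0.087 and 0.41).

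The hyaluronan and proteoglycan genes build the hydrated matrix between cells. Of 22 tested members 5 rose, 1 fell and 16 did not pass, and the median was 0.37 log2. VCAN, a large proteoglycan that binds hyaluronan, had signals of 4801, 5099 and 5391 in left epithelium, against 1037, 850 and 1368 in right epithelium. Every left array exceeded every right one, by 2.24 ± 0.15 log2 (4.73-fold, limma adjusted p = 1.2e-07). MGP, an inhibitor of calcification that is stored in matrix, had 236, 314 and 333 in left epithelium, against 57.0, 44.7 and 29.3 in right epithelium, 2 of which were above background (2.39 ± 0.31 log2, limma adjusted p = 0.00018). LUM and DCN are small leucine-rich proteoglycans that coat collagen fibrils, and SPOCK1 is a proteoglycan of the SPARC family. LUM had 1292, 1183 and 910 in left epithelium, against 436, 299 and 189 in right epithelium, and SPOCK1 had 2208, 1889 and 2332, against 510, 757 and 662. Both groups were apart for each gene, with rises of 1.88 ± 0.20 and 1.72 ± 0.17 log2. DCN rose by 0.51 log2 and missed the threshold without left epithelium 2 (limma adjusted p = 0.22). The member that fell, TNFAIP6, transfers heavy chains onto hyaluronan. Its signals were 66.3, 67.9 and 31.5 in left epithelium, against 246, 123 and 151 in right epithelium (-1.41 ± 0.36 log2, limma adjusted p = 0.049), and without left epithelium 3 its adjusted p was 0.25. The hyaluronan synthase HAS2 lay at 103, 75.0 and 30.8 in left epithelium, against 51.8, 51.3 and 38.2 in right epithelium, and the groups overlapped. Of the 6 called members, 2 passed with the globin covariate. VCAN was at 2.12, MGP at 1.79, LUM at 1.81, SPOCK1 at 1.77, DCN at 0.64 and TNFAIP6 at -1.38 log2 without left epithelium 2 and 3.

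Collagens and matrix glycoproteins showed the opposite balance, with 0 higher and 5 lower of 56 tested and a median of -0.22 log2. SPARC, a calcium-binding matrix protein, had signals of 12554, 12893 and 11771 in left epithelium, against 16828, 22086 and 21264 in right epithelium (-0.68 ± 0.09 log2, limma adjusted p = 0.00024). POSTN, a periostin that crosslinks collagen, fell by 0.80 log2, and both SPARC and POSTN passed without any 1 epithelial array. The fibrillar collagens COL1A1 and COL5A1 and the basement membrane collagen COL4A1 were 0.56, 0.39 and 0.99 log2 lower, and each missed the threshold without left epithelium 3, with adjusted p of 0.083, 0.13 and 0.17 in limma. None of the 5 passed with the globin covariate. SPARC was then at -0.43, POSTN at -0.61, COL1A1 at -0.25, COL5A1 at -0.42 and COL4A1 at -0.92 log2. In the same order they had -0.53, -0.76, -0.38, -0.41 and -1.07 log2 without left epithelium 2 and 3.

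Basement membrane genes, whose products form the sheet under the epithelium, gave 4 higher and 1 lower (COL4A1) of 24 tested, with a median of -0.09 log2. SMOC2, a calcium-binding matricellular protein, had signals of 2269, 2164 and 2567 in left epithelium, against 929, 830 and 1080 in right epithelium (1.29 ± 0.16 log2, limma adjusted p = 0.00017). NPNT, the nephronectin ligand of the integrin that contains ITGA8, had 1148, 822 and 713 in left epithelium, against 269, 386 and 385 in right epithelium, so that ligand and receptor subunit ran in opposite directions. FREM2, a large matrix protein of epithelial basement membranes, and LAMA5, a laminin chain, were 1.44 and 0.89 log2 higher. The adjusted p of NPNT was 0.14 without left epithelium 1, and that of FREM2 and LAMA5 was 0.14 and 0.096 without left epithelium 3. The laminin chains LAMB1 (0.00 log2) and LAMC1 (-0.09 log2) did not pass. Of the 5 calls, 0 passed with the globin covariate. In that fit SMOC2 was at 1.28, NPNT at 1.95, FREM2 at 0.86, LAMA5 at 0.66 and COL4A1 at -0.92 log2. All 5 kept their sign without left epithelium 2 and 3. There SMOC2 was at 1.27, NPNT at 1.87, FREM2 at 1.21, LAMA5 at 0.79 and COL4A1 at -1.07 log2.

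Among 41 proteases and their inhibitors 1 rose and 5 fell, with a median of -0.16 log2. MMP28, a secreted metalloproteinase of epithelia, had signals of 31.5, 30.5 and 38.7 in left epithelium, against 168, 121 and 161 in right epithelium (-1.74 ± 0.32 log2, limma adjusted p = 0.0054). ADAMTS9, which cleaves versican, had 1137, 1061 and 955 in left epithelium, against 487, 372 and 575 in right epithelium (1.13 ± 0.18 log2, limma adjusted p = 0.0017). These groups did not overlap. MMP2, a gelatinase, and ADAM22, ADAMTS19 and PAPPA fell by 0.47 to 1.31 log2, and each lost its call without at least 1 epithelial array. Of the 6 calls 0 passed with the globin covariate, where the limma adjusted p was 0.23 for MMP28 and 0.11 for ADAMTS9. The sizes in that fit were -1.90 log2 for MMP28, 1.28 for ADAMTS9, -0.61 for MMP2, -1.27 for ADAM22, -0.69 for ADAMTS19 and -1.53 for PAPPA. Without left epithelium 2 and 3 all 6 kept their sign, at -1.72 log2 for MMP28 and 1.21 for ADAMTS9.

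Among transcription factors 2 of 59 rose and 4 fell, with a median of 0.04 log2. ISL1, a LIM homeodomain factor, had signals of 702, 836 and 836 in left epithelium, against 104, 210 and 214 in right epithelium. The difference was 2.13 ± 0.26 log2 (4.37-fold, limma adjusted p = 0.00012), and right epithelium 1 was the lowest array. TBX18, a T-box factor, had 841, 362 and 623 in left epithelium, against 2076, 2353 and 2912 in right epithelium. The sides did not overlap, and the left arrays scattered more than the right ones in relation to their level (-2.04 ± 0.21 log2, limma adjusted p = 1.8e-05). FOXC2, a forkhead factor, rose, with 842, 784 and 814 in left epithelium against 421, 384 and 412 in right epithelium (0.98 ± 0.18 log2, limma adjusted p = 0.0043).

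TCF21, a bHLH factor of visceral mesoderm, EYA4, a transcriptional coactivator, and GATA4, a zinc finger factor of heart, gut and gonad, were 1.47, 1.42 and 0.87 log2 lower on the left. They missed the threshold without right epithelium 3, left epithelium 2 and left epithelium 3 in that order (limma adjusted p of 0.15, 0.17 and 0.054). Without left epithelium 2 and 3 the differences were -1.46 log2 for TBX18, 2.10 for ISL1 and 0.93 for FOXC2. With the globin covariate 1 of the 6 factors passed. ISL1 was then at 2.45, FOXC2 at 0.92, TBX18 at -1.31, TCF21 at -0.84, EYA4 at -1.48 and GATA4 at -0.58 log2. LHX9, a LIM homeodomain factor of the gonadal ridge, had 2845, 4051 and 2611 in left epithelium, against 4802, 4230 and 4373 in right epithelium, without overlap but without passing (limma adjusted p = 0.11). GATA5 (-0.30 log2) did not pass either, and BNC1 was nearly equal, at 2409, 3090 and 3257 in left epithelium against 3293, 2941 and 2492 in right epithelium. Of 21 HOX genes 0 passed in limma, 3 had an unadjusted p under 0.05, and 5 did not overlap. Of all genes tested, 17.5% did not overlap.

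**Figure D3:**
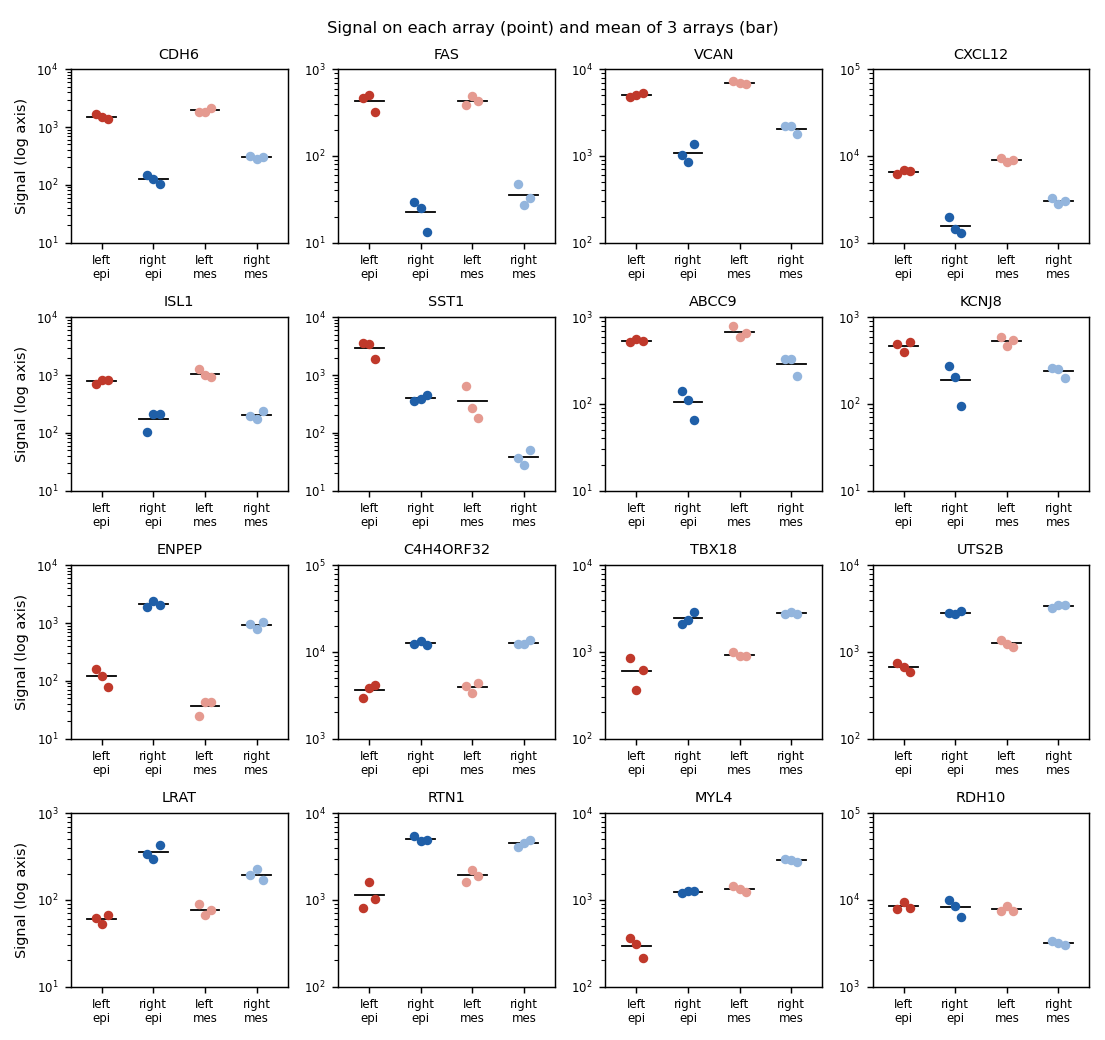
Signals on a log axis of 16 genes on each array, with points for the arrays and a bar for the mean of 3, for left epithelium, right epithelium, left mesenchyme and right mesenchyme. CDH6, FAS, VCAN, CXCL12, ISL1, SST1, ABCC9 and KCNJ8 lie higher in left than in right epithelium, ENPEP to MYL4 lie lower, and RDH10 overlaps between the sides in the epithelium.

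Genes of peptide hormones and their receptors gave 2 higher and 3 lower of 27 tested, with a median of -0.15 log2. SST1 encodes the somatostatin precursor, an inhibitor of hormone release in the adult gut and brain. Its signals were 3522, 3507 and 1871 in left epithelium, against 350, 380 and 450 in right epithelium. Left epithelium 3 was the lowest left array and still lay well above the right ones, and the difference was 2.81 ± 0.35 log2 (7.04-fold, limma adjusted p = 0.00013). VIPR2, a receptor for vasoactive intestinal peptide, had 505, 531 and 839 in left epithelium, against 94.6, 76.8 and 92.8 in right epithelium (2.59 ± 0.36 log2, limma adjusted p = 0.00037). CRHBP, which binds and holds corticotropin-releasing hormone, fell, with 44.1, 3.94 and 18.9 in left epithelium against 278, 198 and 340 in right epithelium. It was above background on 1 left array and on all right ones (-3.02 ± 0.39 log2, limma adjusted p = 0.00017). SCGN, a calcium-binding protein of endocrine cells, had 78.6, 152 and 69.3 in left epithelium, against 509, 625 and 602 in right epithelium (-2.42 ± 0.33 log2). EDNRB, an endothelin receptor, was at 351, 315 and 345 in left epithelium, against 894, 787 and 1066 in right epithelium (-1.39 ± 0.19 log2). All 5 passed without any 1 epithelial array, and 1 passed with the globin covariate. SST1 was at 2.85, VIPR2 at 2.09, CRHBP at -2.15, SCGN at -2.50 and EDNRB at -1.49 log2 without left epithelium 2 and 3. In the same order they had 3.37, 1.88, -2.14, -2.48 and -1.41 log2 with the covariate. UTS2B, the urotensin-related peptide, belonged to the largest falls, with 738, 675 and 592 in left epithelium against 2807, 2740 and 2960 in right epithelium. Its arrays were tight on both sides (-2.06 ± 0.14 log2, 4.18-fold, limma adjusted p = 1.4e-07).

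ENPEP showed the largest change of all named genes. It encodes aminopeptidase A, a membrane enzyme that trims angiotensin II. Its signals were 159, 119 and 79.3 in left epithelium, against 1893, 2410 and 2034 in right epithelium, a fall of 4.01 ± 0.28 on the log2 scale (16.1-fold lower, limma adjusted p = 1.7e-07). PTPRO, a receptor phosphatase known from the podocytes of the kidney, had 374, 344 and 229 in left epithelium, against 1233, 1652 and 1824 in right epithelium (-2.27 ± 0.22 log2, limma adjusted p = 8.0e-06). These were the 2 of 14 tested podocyte and ectopeptidase genes that passed, 0 being higher. ENPEP was at -3.45 and PTPRO at -1.83 log2 without left epithelium 2 and 3. With the globin covariate ENPEP passed (limma adjusted p = 0.0022) and PTPRO was at 0.05005. PODXL, of the same list, did not pass (-0.27 log2). AGTR1, a receptor for angiotensin II, had 322, 321 and 438 in left epithelium, against 188, 139 and 205 in right epithelium, and missed the threshold (0.96 log2, limma adjusted p = 0.073).

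Retinoic acid, the active form of vitamin A, patterns embryonic mesoderm, and cells make it in steps and clear it with CYP26 enzymes. Of 18 tested genes of this path 2 rose, 3 fell and 13 did not pass, with a median of -0.07 log2. ALDH1A2, the main synthesis enzyme of trunk mesoderm, had signals of 8889, 9713 and 7912 in left epithelium, against 13975, 13457 and 15382 in right epithelium, a separation without overlap (-0.69 ± 0.10 log2, limma adjusted p = 0.00047). LRAT, which stores retinol as ester, had 61.2, 52.8 and 66.1 in left epithelium, against 336, 297 and 425 in right epithelium (-2.27 ± 0.31 log2, 4.81-fold lower, limma adjusted p = 0.00031). ALDH1A3, another synthesis enzyme, was 0.72 log2 lower with overlapping arrays, and without left epithelium 1 it missed the threshold (limma adjusted p = 0.20). CYP26A1, which degrades retinoic acid, ran the other way, with 1993, 1802 and 1570 in left epithelium against 939, 776 and 671 in right epithelium (1.16 ± 0.17 log2, limma adjusted p = 0.00076). FABP5, a carrier of fatty acids and retinoic acid, was at 228, 215 and 231 in left epithelium, against 57.9, 52.1 and 30.2 in right epithelium (1.97 ± 0.35 log2, limma adjusted p = 0.0038). Thus 1 clearing enzyme was higher and 2 synthesis enzymes were lower on the left. LRAT was at -2.28, ALDH1A3 at -1.24, ALDH1A2 at -0.63, CYP26A1 at 1.05 and FABP5 at 1.89 log2 without left epithelium 2 and 3. With the globin covariate 1 of the 5, ALDH1A3, passed (-1.43 log2, limma adjusted p = 0.0071). In that fit LRAT had -2.23, ALDH1A2 -0.59, CYP26A1 0.99 and FABP5 1.84 log2.

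Guidance factors and chemokines steer migrating cells and axons. Of 32 tested, 2 rose and 4 fell. CXCL12, a chemokine that attracts endothelial and germ cells, had signals of 6172, 6811 and 6714 in left epithelium, against 1994, 1429 and 1293 in right epithelium. The gap was far wider than the spread within either side (2.08 ± 0.13 log2, 4.21-fold, limma adjusted p = 6.1e-08). Its receptor CXCR4 was at 349, 285 and 210 in left epithelium, against 177, 197 and 132 in right epithelium, and did not pass (limma adjusted p = 0.27). SEMA5A, a transmembrane semaphorin, had 1016, 755 and 639 in left epithelium, against 1820, 2274 and 2228 in right epithelium (-1.39 ± 0.19 log2, limma adjusted p = 0.0004). SEMA3E, a secreted semaphorin, the Slit ligand SLIT3 and the netrin receptor UNC5C fell by 1.57, 0.74 and 0.70 log2, and NRP2, a semaphorin receptor, was 0.97 log2 higher. Without single arrays the adjusted p in limma reached 0.061 for SEMA3E, 0.079 for SLIT3, 0.24 for UNC5C and 0.14 for NRP2, and another probe set of NRP2 had -0.17 log2. SLIT2 (0.07 log2), ROBO1 (0.06) and SEMA3A (0.17) did not pass. Of the 6 calls, that of CXCL12 was the 1 that also passed with the globin covariate. CXCL12 was at 1.80, SEMA5A at -0.98, SEMA3E at -1.84, SLIT3 at -0.64, UNC5C at -0.80 and NRP2 at 1.15 log2 without left epithelium 2 and 3. Among 12 ephrins and Eph receptors 0 rose and 2 fell, EFNB1 by 0.85 and EPHA3 by 0.53 log2, with adjusted p of up to 0.24 and 0.25 in limma without left epithelium 2 and right epithelium 2. Neither passed with the globin covariate (-0.27 and -0.32 log2), and they had -0.44 and -0.42 log2 without left epithelium 2 and 3.

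Of 28 Wnt ligands, receptors and coreceptors 1 rose and 2 fell, and of 21 antagonists and targets 0 rose and 3 fell. GPC3, a glypican that holds Wnt ligands at the cell surface, had signals of 1615, 1278 and 1234 in left epithelium, against 327, 341 and 379 in right epithelium (1.92 ± 0.18 log2, 3.79-fold, limma adjusted p = 6.1e-06). RSPO3, which amplifies Wnt signals, had 3597, 2629 and 2949 in left epithelium, against 6031, 6110 and 6289 in right epithelium (-1.01 ± 0.18 log2, limma adjusted p = 0.004). GPC3 and RSPO3 passed without any 1 epithelial array, and had 2.20 and -0.80 log2 without left epithelium 2 and 3. With the globin covariate GPC3 passed and RSPO3 did not (2.26 and -0.72 log2, limma adjusted p of 0.0019 and 0.51). ROR2, a receptor for Wnt5a, the secreted inhibitor SFRP2 and the nuclear effector TCF7L2 were 0.98, 0.93 and 0.99 log2 lower, and did not pass without right epithelium 2, left epithelium 1 and left epithelium 3 in that order (limma adjusted p of 0.15, 0.067 and 0.054). Of the 3 antagonists and targets, SFRP2 passed with the globin covariate (limma adjusted p = 0.047). SFRP2 was at -1.32 log2 without left epithelium 2 and 3. Other probe sets of TCF7L2 had 0.16 and 0.39 log2. The receptors FZD4 (0.40 log2) and FZD8 (-0.18 log2) did not pass, and DAAM2, a formin that acts downstream, was 1.03 log2 higher, with an adjusted p of 0.14 without left epithelium 1. Of 7 tested genes recalled from the field as left-sided in this mesentery, ISL1, CXCL12, GPC3 and DAAM2 rose, and the other 3, CDH2 and the 2 frizzled genes above, missed the threshold. Of 6 recalled as right-sided, TBX18, TNFAIP6 and SFRP2 fell, while SFRP1 (-0.35 log2), BMP4 (-0.81 log2) and HAS2 (0.35 log2) did not pass. The recall was not checked against a source, and such genes are no independent evidence of a side.

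Genes of BMP and TGF-beta signalling gave 2 higher and 2 lower of 37, with a median of -0.18 log2. LTBP1, which stores latent TGF-beta in matrix, had signals of 13804, 13966 and 14479 in left epithelium, against 6182, 7522 and 6922 in right epithelium (1.04 ± 0.09 log2, limma adjusted p = 3.8e-06). TGFB2, a ligand of the family, had 14658, 11046 and 11826 in left epithelium, against 8275, 8678 and 9292 in right epithelium (0.51 ± 0.09 log2, limma adjusted p = 0.0057). Both were higher on every left array, and both passed with the globin covariate. LTBP1 was at 1.05 and TGFB2 at 0.74 log2 without left epithelium 2 and 3. SMAD6, an inhibitor of BMP signalling, had 3607, 4945 and 3812 in left epithelium, against 6363, 8225 and 7010 in right epithelium (-0.81 ± 0.13 log2, limma adjusted p = 0.0015). It did not pass with the globin covariate (-0.88 log2, limma adjusted p = 0.13), and had -0.95 log2 without left epithelium 2 and 3. BMP6 was 1.88 log2 lower with left signals of 82.6, 5.59 and 31.6, 2 of them above background, and its adjusted p was 0.26 without left epithelium 2.

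Among 33 genes of other growth factors and their receptors 3 rose and 2 fell. PTN, a heparin-binding growth factor, fell by 1.01 ± 0.11 log2, with 4517, 5020 and 3991 in left epithelium against 8353, 9131 and 9746 in right epithelium. PDGFD, PDGFA and KITLG, ligands of receptor kinases, were 1.12, 0.93 and 0.92 log2 higher, and CYR61, a matricellular factor, was 0.72 log2 lower. These 4 calls did not survive every omission of 1 array, with adjusted p in limma of up to 0.051 (PDGFD, without left epithelium 3), 0.11 (PDGFA, without left epithelium 2), 0.080 (KITLG, without right epithelium 1) and 0.14 (CYR61, without left epithelium 2). PTN was the 1 of the 5 that passed with the globin covariate (limma adjusted p = 0.047). PTN was at -0.98, PDGFD at 0.78, PDGFA at 0.75, KITLG at 1.04 and CYR61 at -0.61 log2 without left epithelium 2 and 3. In the FGF list 0 of 21 rose and 1 fell, a share of 4.76% where that of all genes was 3.14%. FGFR2, an FGF receptor of epithelia, had 2532, 2619 and 2203 in left epithelium, against 3526, 4013 and 4237 in right epithelium (-0.68 ± 0.12 log2, limma adjusted p = 0.0037). HEY1, a target of Notch, was the 1 of 16 hedgehog and Notch genes that passed (6.25%). Its signals were 1692, 1736 and 1934 in left epithelium, against 1156, 803 and 567 in right epithelium. Neither FGFR2 nor HEY1 passed with the globin covariate (-0.49 and 0.55 log2, limma adjusted p of 0.45 and 0.67). They had -0.59 and 0.85 log2 without left epithelium 2 and 3.

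Ion channels and connexins gave 5 higher and 8 lower of 94 tested, with a median of 0.01 log2. ABCC9 and KCNJ8 encode the regulatory and pore subunits of a potassium channel that ATP closes. ABCC9 had signals of 518, 555 and 529 in left epithelium, against 139, 111 and 64.8 in right epithelium (2.24 ± 0.26 log2, limma adjusted p = 5.4e-05). KCNJ8 had 489, 399 and 525 in left epithelium, against 275, 205 and 94.1 in right epithelium (1.34 ± 0.29 log2, limma adjusted p = 0.018), and without left epithelium 3 its adjusted p was 0.14. Both subunits were thus higher on each left array. ABCC8, the other sulfonylurea receptor, rose by 1.63 ± 0.30 log2, and KCNMA1, a calcium-activated potassium channel, by 1.44 ± 0.19 log2. KCNMA1 had 2253, 1928 and 2159 in left epithelium, against 765, 916 and 647 in right epithelium.

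In the opposite direction, KCND2, a channel of the transient potassium current, had signals of 208, 413 and 55.5 in left epithelium, against 758, 865 and 820 in right epithelium. Left epithelium 3 lay far below the other two, which made this difference less precise (-2.12 ± 0.45 log2, limma adjusted p = 0.015). KCNK7, a channel subunit of the background type, had 2550, 3640 and 3270 in left epithelium, against 5817, 5932 and 5277 in right epithelium (-0.86 ± 0.12 log2, limma adjusted p = 0.00053). TRPC4, a cation channel, fell by 1.51 ± 0.27 log2. The glutamate receptor genes GRID1 and GRIA2, the sodium channel SCN2A, the calcium channel TRPV6 and the potassium channel KCNQ1 were 1.07 to 2.00 log2 lower, and the connexin GJA1 was 0.75 log2 higher. Each of these 6 lost its call without at least 1 epithelial array, with adjusted p in limma of up to 0.16, 0.21, 0.15, 0.15, 0.19 and 0.23. Of the 13 calls, 2 passed with the globin covariate. All 13 kept their sign without left epithelium 2 and 3, with ABCC9 at 1.91, KCNJ8 at 1.10 and KCND2 at -1.75 log2.

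Solute carriers gave 2 higher and 1 lower of 173, a share of 1.73% where that of all genes was 3.14%. SLC9A9, a sodium-proton exchanger of endosomes, had signals of 467, 654 and 429 in left epithelium, against 48.8, 127 and 150 in right epithelium (2.18 ± 0.27 log2, limma adjusted p = 0.00012). It was the 1 of the 3 that passed with the globin covariate, and it had 2.49 log2 without left epithelium 2 and 3. SLC34A2, a phosphate carrier, was 1.51 log2 higher and SLC45A4 was 0.46 log2 lower, with adjusted p of up to 0.25 without left epithelium 3 and 0.099 without right epithelium 2. Of 65 cytosolic ribosomal protein genes 0 passed in limma and 5 had an unadjusted p under 0.05, with a median of -0.06 log2.

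Contractile and muscle genes gave 2 higher and 4 lower of 36, with a median of -0.24 log2. SMYD1, a methyltransferase that helps assemble myosin in striated muscle, had signals of 116, 120 and 85.0 in left epithelium, against 912, 901 and 676 in right epithelium. The sides were far apart (-2.78 ± 0.30 log2, 6.89-fold lower, limma adjusted p = 2.6e-05). MYL4, an embryonic myosin light chain, had 365, 308 and 211 in left epithelium, against 1194, 1260 and 1256 in right epithelium (-2.04 ± 0.17 log2, limma adjusted p = 1.6e-06). VIM, the intermediate filament protein vimentin, had 17726, 17296 and 16129 in left epithelium, against 23962, 23425 and 22962 in right epithelium (-0.46 ± 0.07 log2, limma adjusted p = 0.00094). TNNC1, a troponin, was 0.41 log2 lower, with an adjusted p of 0.11 without right epithelium 2. The LIM proteins FHL1 and CSRP2 rose by 1.74 ± 0.25 and 1.20 ± 0.13 log2. CSRP2 had 2884, 2303 and 2322 in left epithelium, against 1186, 1041 and 998 in right epithelium. The smooth muscle genes MYH11 (-0.12 log2) and MYL9 (-0.53 log2) did not pass. The calls of SMYD1, MYL4 and CSRP2 held with the globin covariate, and those of VIM (-0.38 log2), FHL1 (1.61) and TNNC1 (-0.58) did not. SMYD1 was at -2.66, MYL4 at -1.75, CSRP2 at 1.33, VIM at -0.38, FHL1 at 1.56 and TNNC1 at -0.52 log2 without left epithelium 2 and 3.

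FAS, the receptor through which FAS ligand triggers apoptosis, had signals of 467, 505 and 321 in left epithelium, against 29.2, 25.2 and 13.4 in right epithelium, where 2 of 3 arrays were above background. The difference was 3.53 ± 0.32 log2 (11.6-fold, limma adjusted p = 3.7e-06). In the list of 32 death receptor and apoptosis genes TNFRSF19, of the same receptor family, was 1.30 log2 higher and PERPB 1.23 log2 lower, and 29 did not pass. The partners of FAS in the death-inducing complex were level, with CASP8 at 1025, 1083 and 1334 in left epithelium against 1007, 1083 and 1043 in right epithelium, and FADD at 1102, 1115 and 1211 against 996, 1317 and 1429. TNFRSF19 had an adjusted p of 0.074 without left epithelium 2. FAS was the 1 of the 3 calls that passed with the globin covariate (limma adjusted p = 0.011). FAS was at 3.54, TNFRSF19 at 1.28 and PERPB at -1.45 log2 without left epithelium 2 and 3.

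Mitosis and kinetochore genes gave 6 higher and 2 lower of 68, and their median was 0.33 log2 where that of all genes was 0.02. In the mesenchyme the median of the same list was 0.38 log2. BUB1B, a checkpoint kinase, had signals of 8343, 9588 and 9403 in left epithelium, against 6868, 7383 and 7022 in right epithelium (0.36 ± 0.09 log2, limma adjusted p = 0.039). CENPM, TTK, NUSAP1, CENPF and SMC2 were 0.47 to 0.97 log2 higher. CENPW, a centromere protein, had 4802, 5262 and 4580 in left epithelium, against 8600, 6555 and 7453 in right epithelium (-0.62 ± 0.11 log2, limma adjusted p = 0.0048), and it was the 1 member that passed without any 1 epithelial array. CENPO was 0.70 log2 lower. The 7 other calls reached adjusted p of 0.096 to 0.31 without single arrays, and 0 of the 8 passed with the globin covariate. All 8 kept their sign without left epithelium 2 and 3, with CENPW at -0.67 and BUB1B at 0.27 log2. Of 61 DNA replication genes 1 rose (TYMS, 0.62 log2), with a median of 0.22 log2. TYMS did not pass without left epithelium 3 (limma adjusted p = 0.24), nor with the globin covariate. It was at 0.39 log2 without left epithelium 2 and 3.

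Neural and endocrine gene lists held several of the largest falls. TH, the first enzyme of catecholamine synthesis, had signals of 36.5, 8.83 and 15.7 in left epithelium, against 161, 141 and 201 in right epithelium, and was above background on 1 left array (-2.40 ± 0.37 log2, limma adjusted p = 0.0013). HNMT, which inactivates histamine, had 19.2, 32.9 and 18.6 in left epithelium, against 207, 218 and 99.9 in right epithelium, also with 1 left array above background (-2.22 ± 0.35 log2, limma adjusted p = 0.0014). RTN1, a reticulon of the endoplasmic reticulum, had 810, 1600 and 1031 in left epithelium, against 5450, 4779 and 4903 in right epithelium. It was among the most separated genes (-2.18 ± 0.17 log2, 4.52-fold lower, limma adjusted p = 5.5e-07), and it passed with the globin covariate (limma adjusted p = 0.00016). TH (-1.74 log2) and HNMT (-2.66 log2) did not pass with the covariate (limma adjusted p of 0.39 and 0.090). RTN1 was at -2.52, TH at -1.85 and HNMT at -2.54 log2 without left epithelium 2 and 3. Of 17 genes of neural crest and neurons 2 rose (NTRK3 and NEFM) and 4 fell (TH, EDNRB, MITF and SYT1). Of these 6, 0 passed with the globin covariate, and all 6 kept their sign without left epithelium 2 and 3. NEFM and SYT1 had adjusted p in limma of 0.19 without left epithelium 1 and 0.16 without right epithelium 2. The neural crest marker SOX10 was above background on 0 left and 1 right epithelial arrays and lay below the filter. DBH, which follows TH in the pathway, lay below the filter too, but was above background on 3 left and 2 right epithelial arrays. ELAVL4, a neuronal marker, had 1877, 2667 and 2057 in left epithelium, against 2176, 1526 and 1565 in right epithelium. It did not pass (0.33 log2, limma adjusted p = 0.49).

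Of 23 tested mesenchyme markers 2 rose (LUM and DCN) and 6 fell (COL1A1, COL5A1, POSTN, TCF21, VIM and S100A6), a share of 34.8% where that of all genes was 3.14%, with a median of -0.22 log2. TCF21 also stands among the markers of coelomic epithelium, so it does not tell the layers apart. LUM, DCN, COL1A1, COL5A1, POSTN and VIM were already counted in lists above, so this share is no separate result. Of the 8 calls, 0 held with the globin covariate, and all 8 kept their sign without left epithelium 2 and 3. Of 18 leukocyte genes 0 passed in limma (median -0.48 log2, 6 with an unadjusted p under 0.05), and of 27 endothelial genes FLT1, a VEGF receptor, was 1.14 log2 lower (median 0.20), with another probe set at 0.30 log2. Among 14 genes of gonad, adrenal and kidney 0 rose, and CUBN, NR0B1 and GATA4 fell (21.4%), each losing its call without left epithelium 3. Of 17 genes of endoderm and liver 0 rose and 2 fell (11.8%), with a median of 0.01 log2. FABP1, the fatty acid carrier of liver and gut, had 23.9, 4.07 and 26.7 in left epithelium, against 202, 100.2 and 168 in right epithelium (-2.36 ± 0.42 log2, limma adjusted p = 0.0034). Of the 5 liver markers AFP lay below the filter, and ALB (0.03 log2), FGB (0.07), APOA1 (-0.37) and TTR (0.98) did not pass. APOA1 had 2584, 1789 and 1449 in left epithelium, against 1866, 2697 and 2866 in right epithelium. TTR ran the other way from FABP1, with 297, 342 and 213 against 166, 161 and 88.5 (limma adjusted p = 0.14). DAZL, an RNA-binding protein of germ cells, had 4890, 5329 and 5450 in left epithelium, against 3771, 3890 and 3539 in right epithelium (0.48 ± 0.11 log2, limma adjusted p = 0.025), and 0.16 without left epithelium 3. Its partner in the marker list, DDX4, did not pass. With the globin covariate, 0 of the calls of the endothelial, gonad, adrenal and kidney, liver and gut, and germ cell lists passed. FLT1 was at -1.15, CUBN at -0.76, NR0B1 at -1.21, GATA4 at -0.71, FABP1 at -2.14 and DAZL at 0.35 log2 without left epithelium 2 and 3.

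**Figure D4:**
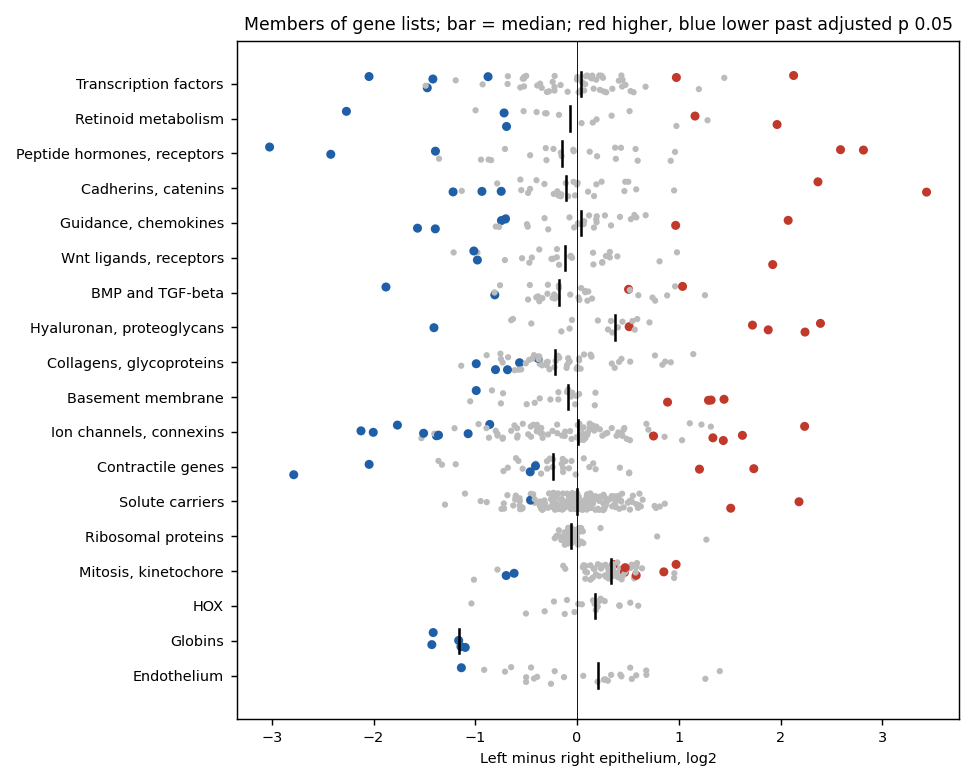
Left minus right difference in the epithelium (horizontal axis, log2) of every tested member of 18 gene lists, with genes that passed in red (higher) or blue (lower), the others in grey and a bar at the median. Hyaluronan and proteoglycan genes and mitosis genes have medians of 0.37 and 0.33, and the 5 globin genes one of -1.16.

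In the mesenchyme 250 of 9620 genes passed (2.6%). The 125 genes that passed in both layers had the same direction in both, and they made up 41.4% of the epithelial and 50% of the mesenchymal calls. Probe sets without a single symbol are not in this count. Of the 302 epithelial calls, 285 (94.4%) had the same sign in the mesenchyme, against 62.3% of all genes. These arrays are different, but both layers come from the same 3 experiments of the series and lie side by side in the section. CDH6 changed by 3.44 log2 in the epithelium and 2.64 in the mesenchyme, ENPEP by -4.01 and -4.17, and ISL1 by 2.13 and 2.30. MGP (2.39 and 0.61 log2) and SLC9A9 (2.18 and 0.81 log2) passed in the epithelium and not in the mesenchyme, but the difference between the layers was not past the threshold for either.

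The test of that difference, the interaction of side and layer, passed for 6 of 22616 probe sets (0.0265%), and 1322 had an unadjusted p under 0.05. The 6 belonged to 3 genes, namely RDH10, LOC101749175 and LOC419390, and to 3 probe sets without a single symbol. The unnamed probe set with the lowest interaction p (limma adjusted p = 0.0025) passed in both layers in opposite directions. It had -1.12 log2 in the epithelium and 1.63 log2 in the mesenchyme. Another rose in both layers and passed in both, by 3.999 log2 in the epithelium and 2.83 log2 in the mesenchyme. The last passed in the mesenchyme (-1.19 log2) but not in the epithelium (0.54 log2). RDH10, which makes retinal from retinol, had signals of 7887, 9387 and 7979 in left epithelium, against 9842, 8545 and 6405 in right epithelium, with full overlap (0.04 ± 0.12 log2, limma adjusted p = 0.93). In the mesenchyme it had 7371, 8446 and 7427 on the left, against 3385, 3140 and 3014 on the right (1.28 log2). LOC101749175 and LOC419390 likewise differed in the mesenchyme (2.90 and 3.32 log2) and did not pass in the epithelium (-0.32 and 0.47 log2). MMP28, at -1.74 log2 in the epithelium and 0.93 in the mesenchyme, narrowly missed (interaction -2.66 log2, limma adjusted p = 0.054).

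**Figure D5:**
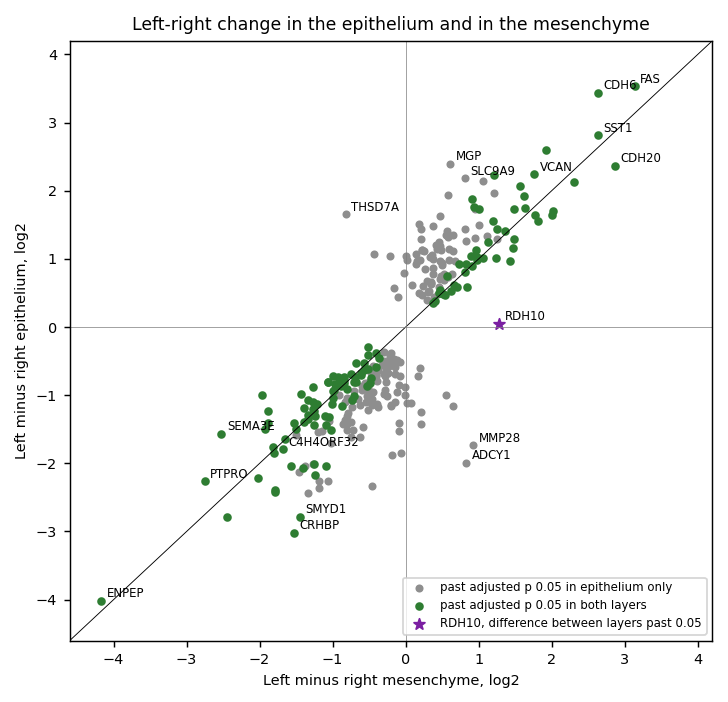
Left minus right difference in the epithelium (vertical axis, log2) against that in the mesenchyme (horizontal axis, log2) for the 302 genes that passed in the epithelium, in green where both layers passed (125 genes), with RDH10 as a star and the line of equal values. Most points lie to the lower left or the upper right of the origin, and RDH10 lies at 1.28 in the mesenchyme and 0.04 in the epithelium.

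The called genes were set in the order of the chicken RefSeq annotation (assembly GRCg7b, used for gene order alone) among the 9618 tested genes that could be placed. Of the 604 places next to the 302 called genes, in which a gene can count more than once, 9.93% were taken by a called gene. Of all placed genes 3.14% were called. There were 30 adjacent pairs in which both genes passed, 27 with the same and 3 with opposite direction, and they held 56 genes. The globin genes, which are known to lie in clusters, gave 3 of these pairs. The pairs named next were chosen after their values were seen. ENPEP lay between C4H4ORF32 and ELOVL6, a fatty acid elongase, and all 3 were lower on the left. C4H4ORF32 had signals of 2917, 3855 and 4126 in left epithelium, against 12271, 13426 and 11870 in right epithelium (-1.79 ± 0.12 log2, 3.47-fold lower, limma adjusted p = 1.2e-07), and ELOVL6 had 3379, 4660 and 3835, against 9135, 7087 and 6361 (-0.92 ± 0.15 log2). ABCC9 and KCNJ8, CXCL12, ANKRD22 and FAS, and LUM and DCN were neighbours that all rose, while SMYD1 and FABP1, TCF21 and EYA4, and AHNAK2 and CLBA1 were neighbours that both fell. UTS2B, which fell by 2.06 log2, lay between CCDC50 (0.80 log2) and OSTN, a secreted peptide of muscle and bone, which rose. OSTN had 3847, 3450 and 4301 in left epithelium, against 1455, 1091 and 902 in right epithelium (1.76 ± 0.16 log2, limma adjusted p = 2.8e-06). PTPRO, which fell, lay beside RERG, which was 1.13 log2 higher. Without single arrays the adjusted p in limma reached 0.25 for CCDC50 (without right epithelium 3), 0.075 for RERG (without left epithelium 1) and 0.29 for CLBA1 (without left epithelium 2).

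Several of the brightest genes that passed changed by less than 2-fold. Among the 5 brightest in each direction, LTBP1, TGFB2, BUB1B, CLSTN1 and PTTG2 rose and VIM, RAB8A, BMERB1, SPARC and HBAD fell. CLSTN1, a calsyntenin, had signals of 7899, 8799 and 9401 in left epithelium, against 6749, 6792 and 6356 in right epithelium (0.39 ± 0.09 log2, limma adjusted p = 0.027). BMERB1 had 14162, 13236 and 13231 in left epithelium, against 17594, 18649 and 21335 in right epithelium (-0.50 ± 0.08 log2, limma adjusted p = 0.0018). The calls of CLSTN1 and PTTG2 were lost without left epithelium 3 and right epithelium 3 (adjusted p = 0.16 for each). RAB8A, a GTPase of membrane transport, was 0.38 log2 lower on its brightest probe set, while 3 others had 0.76, 0.32 and 0.00 log2. At the dim end, LOC419389 was not above background on any left array, with signals of 6.94 to 9.20, against 119, 88.8 and 114 in right epithelium, which is at least 4.86-fold lower.

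Of the 302 called genes, 163 had at least 1 other tested probe set. Among these 293 other probe sets 279 had the same sign, 99 passed in the same direction and 0 passed in the opposite one.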

How the data were processed

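The authors deposited 1-colour Affymetrix intensity values, made with MAS5 in GCOS (no version is given), per the submitters' processing notes. Per the labels, RNA from laser-cut sections was amplified before labelling, which can change the relative level of transcripts. The trimmed mean of each array (2% off each end) was 500.108 to 500.116, so the arrays had been scaled together. Of 38535 probe sets, 96 controls and 746 viral or other sequences were left out, and 37693 chicken probe sets remained, 27166 with 1 symbol, 177 with several and 10350 with none in the platform annotation. Through Entrez numbers 26851 matched RefSeq, and 0 symbols changed.

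After adding a pseudocount of 16 and taking log2, 22616 probe sets above the 40th percentile of mean log2 (a signal of 50.6) were tested with limma 3.58.1 in R 4.3.3. The model held the 4 compartments of all 12 arrays and the replicate number as a fixed block (6 residual and 10.7 prior degrees of freedom), with an intensity trend, two-sided tests and Benjamini-Hochberg adjustment over all 22616 probe sets. Background was the 95th percentile over 59 controls of bacterial or artificial sequence on each array (19.3 to 39.6), and 67.3% to 76.7% of probe sets lay above it. Right epithelium 3 had the highest background and the lowest GAPDH 3 prime minus 5 prime difference (0.946 log2, against 1.22 to 1.34 on the other epithelial arrays). Precision is limited by the number of arrays.

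By the series text each experiment gave all 4 compartments. The replicate number in the titles was read as the experiment, which the labels do not state. Deviations of same-numbered arrays from their compartment means had correlations of -0.061 to 0.11 over 18 pairs (mean 0.022), against a mean of -0.011 between different numbers. On simulated data with 22616 probe sets for left minus right epithelium, 84% of rises and 74% of falls of 2 log2 were recovered, and 42% and 28% of those of 1 log2.

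Genes named are the 15 largest called changes in each direction, called members of gene lists (up to 8 of each), members described by role, the globins and markers, genes with an interaction and the 5 brightest called in each direction. The largest and the brightest were taken among calls with the same sign in all 3 left-right pairs. Genes and lists were chosen with earlier results of these data known. Members named beyond this rule were chosen after their values were seen. Alternatives were the pseudocount, the filter, the scaling, the variance model, the block, covariates for globin and RNA integrity, and arrays left out. Sequences are not used here.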

Additional observations from a re-analysis of the deposited data

Results flagged for a closer look

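RDH10, the retinol dehydrogenase that makes retinal, stood out because its left minus right difference in the epithelium differed from that in the mesenchyme by a test of the difference itself. The interaction was -1.24 log2 (limma adjusted p = 0.012), from 0.04 log2 in the epithelium and 1.28 log2 in the mesenchyme. It stayed past the threshold without any 1 epithelial array (adjusted p of 0.0044 to 0.039) and with the globin covariate (-1.51 log2, adjusted p = 0.011). It missed the threshold with median centring (adjusted p = 0.056), without experiment 2 (0.36) and without an intensity trend (0.40). The interaction was -1.21 to -1.42 log2 in these settings and without left epithelium 2 and 3.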

How the results depend on the processing

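The count of 568 probe sets stayed within 1.5 times under the other pseudocounts, filters, scalings, array weights and the RNA integrity covariate (440 to 584), and without both right epithelium 3 and right mesenchyme 3, chosen after seeing the data (380). Without the replicate block it was 525, and with a random block 520. It moved further in the fit of 6 arrays (289), without an intensity trend (271), with the globin covariate (102) and without left epithelium 2 and 3 (131). It ranged from 327 to 448 without single epithelial arrays and from 203 to 332 without an experiment. The cause was not tested. The interaction count of 6 was 10 with a pseudocount of 64, with quantile normalization, without the replicate block and with a random one. It was 3 without the filter and with median centring, 0 without the trend (1355 at an unadjusted p under 0.05), 15 with array weights, 2 with the globin covariate and 1 without left epithelium 2 and 3, 2 to 15 without single arrays and 0 to 9 without an experiment. The fit of 6 arrays has no interaction. Of 163 named called genes, 25 passed in all 24 settings, 77 without each single epithelial array and 147 without the block. HBBR and HBAD turned to 0.014 and 0.072 log2 with the globin covariate. That covariate is the mean of the globin probe sets, theirs included, so values near 0 follow from the fit and are no separate result. Other probe sets had the opposite sign for CTNNA2 (0.049), FLT1 (0.30), NRP2 (-0.17), PFKP (-0.37), CCDC50 (-0.10), RAB8A (0.76, 0.0018 and 0.32) and TCF7L2 (0.16 and 0.39). Left epithelium 2 and 3 and the highest background, on right epithelium 3, limit what can be said of dim genes.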

Other observations

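The genes described here were noticed after their values were seen. GUCY1A3, a subunit of the soluble guanylate cyclase that answers nitric oxide, had signals of 249, 181 and 301 in left epithelium, against 609, 518 and 624 in right epithelium (-1.23 ± 0.24 log2, limma adjusted p = 0.0077). PDE5A, which breaks down cyclic GMP, had 5289, 5553 and 5348 in left epithelium, against 9483, 8116 and 8223 in right epithelium (-0.67 ± 0.10 log2, limma adjusted p = 0.00094). IRAG1, a substrate of the cyclic GMP kinase, had 92.0, 212 and 205 in left epithelium, against 570.4, 322 and 438 in right epithelium (-1.35 ± 0.32 log2, limma adjusted p = 0.033). All 3 were lower on the left without overlap, and without single arrays GUCY1A3 (adjusted p = 0.057, without left epithelium 2) and IRAG1 (0.17, without left epithelium 1) missed the threshold. With the globin covariate IRAG1 passed (limma adjusted p = 0.034), while PDE5A (0.073) and GUCY1A3 (0.29) did not. Without left epithelium 2 and 3 the differences were -0.67 log2 for PDE5A, -1.35 for GUCY1A3 and -2.27 for IRAG1.

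AHNAK2, a large scaffold protein, had 8040, 9355 and 8246 in left epithelium, against 16402, 18243 and 18288 in right epithelium (-1.05 ± 0.08 log2, limma adjusted p = 6.6e-07). MLLT3, a chromatin reader, had 5420, 5851 and 5970 in left epithelium, against 1841, 2317 and 2317 in right epithelium (1.41 ± 0.12 log2, limma adjusted p = 2.1e-06). MBP had 3322, 3085 and 3541 in left epithelium, against 884, 807 and 1622 in right epithelium, and RTN4R, a receptor for myelin proteins, had 1703, 1877 and 1764, against 512, 475 and 715. Both rose by 1.64 ± 0.20 log2, although MBP encodes a protein best known from myelin. With the globin covariate AHNAK2, MLLT3 and MBP passed (limma adjusted p of 0.0018, 0.0020 and 0.043), and RTN4R did not (0.058).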
